A study of Homo sapiens with 44 samples.

Results

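Complement is a cascade of blood and tissue proteins that marks particles for uptake, releases small inflammatory peptides and can punch pores in membranes. Its classical branch starts with the C1 proteases, its alternative branch amplifies C3 cleavage through factor B, and both are held back on host cells by membrane proteins such as CD46, CD55 and CD59. The liver makes most circulating complement, and epithelial cells of the lung also make C3, factor B and C1 proteases, whose genes are known to respond to inflammatory cytokines. The genes described here are 9 complement components and regulators: C1R, C1S, C3, CFB, C5AR1, SERPING1, CD46, CD55 and CD59. They were picked by symbol from complement genes made by lung epithelium, with it already known that C5AR1 and CFB rise with knockdown of IRF2BP2 in A549 cells, so the A549 knockdown values below are a description and carry no test. All 9 were found, among 25690 genes in the HEK293-GR table and among 25689 symbols in the A549 table, where they have 30 listed transcripts and the transcript with the most reads stands for each gene.

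The study asked how IRF2BP2, a cofactor of transcription, shapes the crosstalk of the synthetic glucocorticoid dexamethasone (dex) with the inflammatory cytokine tumour necrosis factor (TNF). A549 is a lung adenocarcinoma line, and HEK293-GR is a line derived from human embryonic kidney that constitutively expresses the glucocorticoid receptor. The A549 groups carried a pool of small interfering RNAs against IRF2BP2 (siIRF2BP2) or a non-targeting pool (siNON), each at 20 nM for 72 h, and then received 100 nM dex with 10 ng/ml TNF, TNF alone, dex alone or ethanol vehicle for 6 h. The HEK293-GR groups carried the same small interfering RNAs and received dex or vehicle for 6 h. All these cells were kept in medium depleted of steroids. Immunoprecipitated chromatin (ChIP) of IRF2BP2 came from HEK293-GR cells after 1 h of dex or vehicle. Of 44 samples, 24 are A549 RNA, 16 are HEK293-GR RNA and 4 are ChIP.

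Expression is given as FPKM, fragments per kilobase of gene length and per M tags. The HEK293-GR table holds 12 libraries, 3 per group, at 18.2 to 28.5 M tags, and the A549 table holds 1 pooled column per group of 3 samples, at 35.8 to 56.9 M tags. No spread between A549 replicates can therefore be given here, and A549 fold changes with their false discovery rates (FDR) are those of the authors' deposited table. The study calls its replicates biological, while no label ties a replicate to its own culture, so p-values measure only the spread between these samples. A549 FPKM is scaled by the genomic span of each transcript, introns included, so A549 levels are compared within a gene only.

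IRF2BP2 itself stood at 9.64, 11.1 and 10.4 FPKM in siIRF2BP2 libraries against 20.6, 20.0 and 19.3 FPKM in siNON libraries of HEK293-GR cells under dex. Under vehicle it stood at 12.6, 11.8 and 13.7 FPKM with siIRF2BP2 against 23.4, 25.0 and 20.3 FPKM with siNON, and limma put the log2 fold change at -0.84 (adjusted p = 1.87e-05). In A549 the pooled levels were 17.9, 21.4, 22.9 and 26.3 FPKM with siIRF2BP2 (dex plus TNF, TNF, dex and vehicle) against 25.4, 26.3, 31.3 and 29.7 FPKM with siNON. IRF2BP2 messenger RNA was thus lower with siIRF2BP2 in both lines, and its A549 log2 fold changes in the authors' deposited table lay between -0.66 and -0.31. Of 7 epithelial markers checked in A549, KRT8, KRT18 and AKR1B10 were at 38.3 FPKM or more in every pooled column. EPCAM stood at 0.545 to 1.14 FPKM, and the lung markers SFTPB, SFTPC and NKX2-1 were under 0.1 FPKM. In HEK293-GR, KRT8 stood at 55.3 to 76.1 FPKM, KRT18 at 48.2 to 67.7, EPCAM at 40.3 to 56.5 and NKX2-1 at 3.63 to 5.50. AKR1B10 was at 0.025 to 0.218 FPKM there. KRT8, KRT18, EPCAM and NKX2-1 therefore do not mark A549 apart from HEK293-GR here. Of 5 HEK293 markers in HEK293-GR cells, ZIC2, HOXA11 and SALL2 were at 10.7 FPKM or more in every library. WT1 (0.618 to 3.06 FPKM) and PAX2 (0.588 to 1.41 FPKM) were lower. In A549, ZIC2 stood at 1.645 to 4.615 FPKM and the others of that list were under 1 FPKM. Of 8 macrophage and blood markers, PTPRC, CSF1R, CD163, ITGAM and HBB were under 0.1 FPKM in both tables. The others of that list were CD68 (13.4 to 19.05 FPKM in A549, 5.55 to 7.12 in HEK293-GR), CD14 (1.22 to 2.94 in A549, 0.058 to 0.618 in HEK293-GR) and HBA1 (0 to 0.040 in A549, 1.38 to 5.05 in HEK293-GR). Of 4 fibroblast markers, COL1A1 stood at 1.49 to 5.23 FPKM in A549 and 4.56 to 7.42 FPKM in HEK293-GR, COL3A1 at 0.946 to 1.74 FPKM in HEK293-GR, and COL1A2 and PDGFRB were under 0.1 FPKM in both. None of 4 hepatocyte or 3 endothelial markers exceeded 1 FPKM in either table. A low A549 FPKM, scaled by genomic span, does not show that a marker was absent. ITGAM, for example, had 79 reads under dex and 338 under TNF with siIRF2BP2 in A549.

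Promoter sequences are shown first for the 3 genes the results turn on: CFB, the most TNF-responsive of them, and C5AR1 and CD55, which moved most with knockdown in A549 under vehicle. Each window runs from 250 bases before to 50 bases after the gene start (RefSeq, build GRCh38.p14), 5′ to 3′ on the gene's strand, with motif matches in capitals. They lie at chr6:31945845-31946144 on the plus strand, chr19:47309611-47309910 on the plus strand and chr1:207321428-207321727 on the plus strand.
CFB: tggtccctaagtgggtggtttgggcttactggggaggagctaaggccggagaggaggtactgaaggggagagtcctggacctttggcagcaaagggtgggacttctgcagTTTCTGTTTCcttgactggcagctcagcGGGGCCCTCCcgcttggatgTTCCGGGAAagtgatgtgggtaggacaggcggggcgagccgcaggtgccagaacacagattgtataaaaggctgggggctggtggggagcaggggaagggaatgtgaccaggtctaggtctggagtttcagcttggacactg
C5AR1: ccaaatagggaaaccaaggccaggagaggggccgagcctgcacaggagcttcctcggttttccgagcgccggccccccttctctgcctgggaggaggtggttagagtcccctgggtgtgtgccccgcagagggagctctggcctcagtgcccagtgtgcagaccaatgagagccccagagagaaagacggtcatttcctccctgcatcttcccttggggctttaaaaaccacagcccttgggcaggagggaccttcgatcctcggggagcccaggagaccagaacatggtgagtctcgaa
CD55: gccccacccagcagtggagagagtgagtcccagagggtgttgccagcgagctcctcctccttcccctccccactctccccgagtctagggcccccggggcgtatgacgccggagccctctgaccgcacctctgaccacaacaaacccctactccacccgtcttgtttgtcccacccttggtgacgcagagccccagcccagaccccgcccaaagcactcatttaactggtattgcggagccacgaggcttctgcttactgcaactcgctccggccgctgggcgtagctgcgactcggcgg
The motifs searched on both strands were the NF-kB consensus, the interferon response element (GAAA, any 2 bases, GAAA), the STAT element TTCNNNGAA and the palindromic glucocorticoid element (AGAACA, any 3 bases, TGTTC) with at most 2 mismatches.

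CFB was the only one of the 6 windows given with a match to the NF-kB consensus, GGGGCCCTCC at -112 to -103 from the gene start. The same window held an interferon response element, read as TTTCTGTTTC on the gene's strand, at -140 to -131, and a STAT element, TTCCGGGAA, at -92 to -84, and these 3 matches do not overlap. CD59 held 1 STAT element, TTCTCAGAA at -128 to -120, and C1R, C5AR1, CD46 and CD55 held no match to any of the motifs. No glucocorticoid element was found in the 6 windows. Among all 27305 promoter windows, 10.8% held the NF-kB consensus, 3.65% the interferon response element, 7.88% the STAT element and 5.17% the glucocorticoid element, so single matches are common and say nothing of binding. C1S, C3 and SERPING1 had no window here.

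C1R and C1S, the paired serine proteases that open the classical pathway, were higher with siIRF2BP2 than with siNON in all 4 A549 conditions. C1S lies on chromosome 12 (hg19, 7167980 to 7178335, plus strand), beside C1R on the minus strand (7187515 to 7245043). C1S had 24.4, 30.0, 17.6 and 15.7 FPKM in siIRF2BP2 columns (dex plus TNF, TNF, dex and vehicle) against 13.7, 14.4, 9.40 and 8.47 FPKM in siNON columns. The C1S columns of siIRF2BP2 were all above those of siNON, by 1.78-fold to 2.08-fold within a condition. C1R had 2.11, 1.99, 1.28 and 0.890 FPKM with siIRF2BP2 against 1.22, 1.07, 0.735 and 0.634 FPKM with siNON, ratios of 1.40 to 1.86. These are bulk cells, in which fewer cells expressing a gene and less RNA per cell cannot be told apart.

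C3, the protein on which all pathways of complement meet, and CFB, factor B, the protease subunit that joins C3b in the alternative pathway convertase, differed in how they followed the knockdown. C3 (chromosome 19, hg19, 6677846 to 6720662, minus strand) had 11.3, 4.6, 2.97 and 1.85 FPKM with siIRF2BP2 against 9.22, 4.16, 2.29 and 1.92 FPKM with siNON. Its siIRF2BP2 to siNON ratios stayed between 0.963 and 1.30. CFB (chromosome 6, hg19, 31913721 to 31919861, plus strand) had 39.4, 43.5, 4.23 and 4.30 FPKM with siIRF2BP2 against 11.3, 10.8, 2.02 and 2.32 FPKM with siNON. The CFB ratio was 1.85 under vehicle and 2.10 under dex, and it was 4.03 under TNF and 3.5 under both agents. CFB is listed with 7 copies in the genome used, and how reads shared by copies were counted is not given in the sources used here.

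C5AR1, the receptor for the peptide C5a, had 0.468, 0.181, 0.661 and 0.515 FPKM with siIRF2BP2 against 0.545, 0.0740, 0.423 and 0.153 FPKM with siNON, on chromosome 19 (hg19, 47813104 to 47825327, plus strand). The knockdown columns were higher under vehicle (3.37-fold), TNF (2.45-fold) and dex (1.56-fold), and lower when dex and TNF were combined, at a ratio of 0.859. Its reads numbered 39 to 326 per column, the fewest of the members after SERPING1. SERPING1, the C1 inhibitor that inactivates C1r and C1s, stood at 0.010 to 0.0620 FPKM, from 7 to 37 reads per column (chromosome 11, hg19, 57365705 to 57382326, plus strand), so its A549 ratios rest on few reads.

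CD55, decay-accelerating factor, which takes apart C3 convertases on the cell surface, was the member that was lower with siIRF2BP2 throughout A549. It had 6.82, 6.82, 2.27 and 2.52 FPKM with siIRF2BP2 against 11.4, 10.7, 7.18 and 6.44 FPKM with siNON (chromosome 1, hg19, 207494817 to 207534311, plus strand). The ratio was 0.317 under dex and 0.392 under vehicle, and 0.638 under TNF and 0.60 under both agents, so CD55 was nearer its siNON level in the columns with TNF. CD46, a cofactor for the cleavage of C3b, lies on the same chromosome (207925383 to 207968861, plus strand) and had 8.0, 8.34, 9.09 and 9.75 FPKM with siIRF2BP2 against 8.04, 8.44, 8.34 and 8.49 FPKM with siNON. CD59, which blocks the last step of the membrane attack complex, had 13.2, 11, 12.4 and 9.47 FPKM with siIRF2BP2 against 9.53, 8.78, 8.30 and 7.48 FPKM with siNON (chromosome 11, 33724556 to 33758025, minus strand). The 3 membrane regulators thus took different courses: CD55 was lower with the knockdown, CD59 was higher by 1.25-fold to 1.5-fold, and CD46 ratios lay between 0.988 and 1.15.

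**Figure D1:**
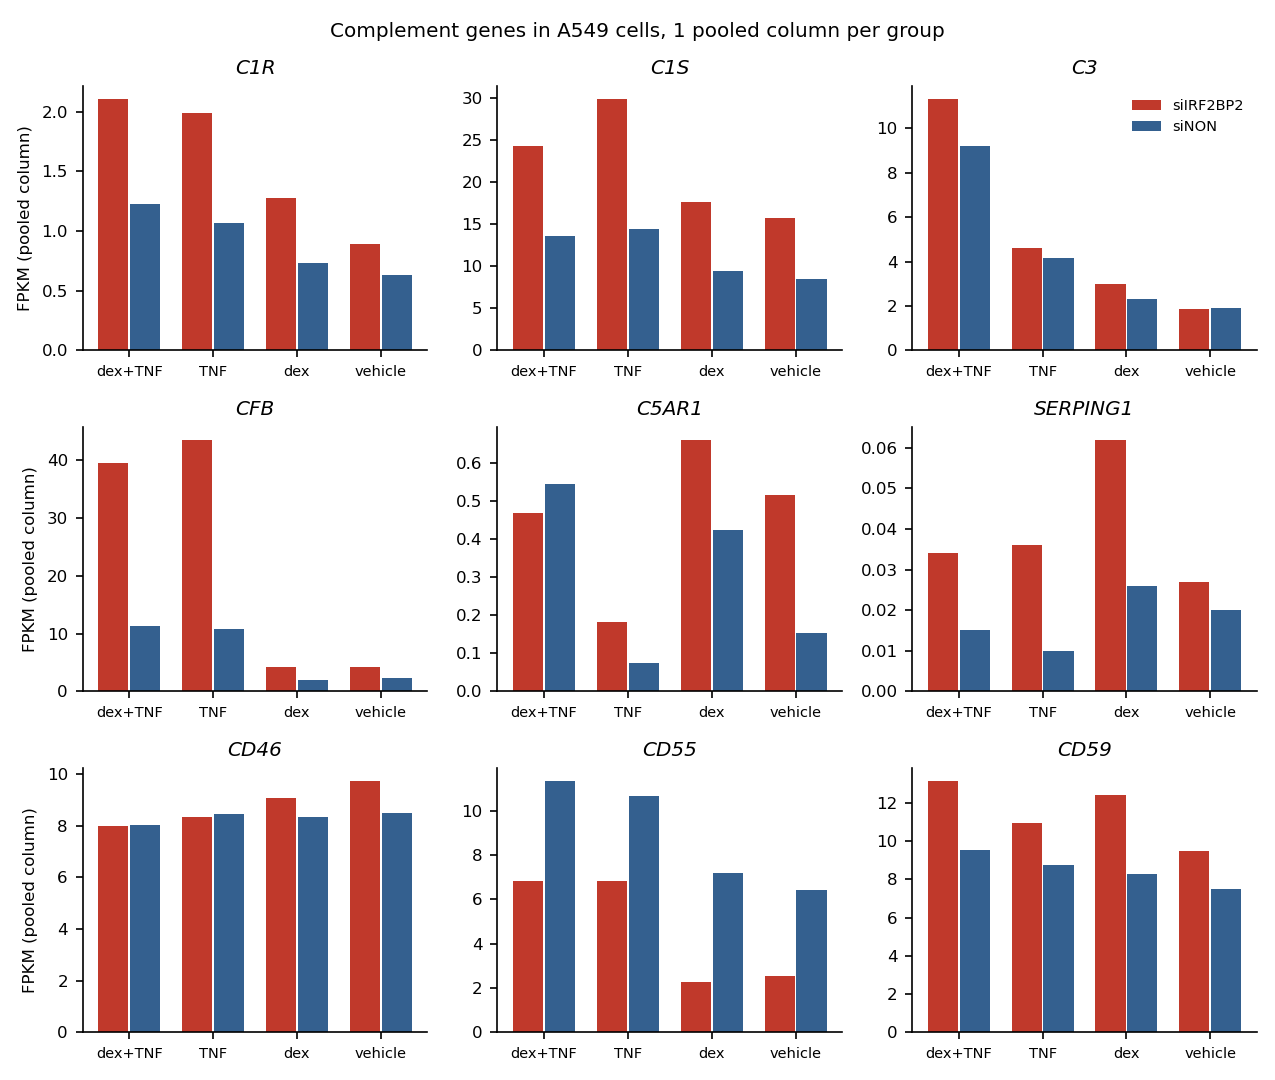
Pooled FPKM (vertical axis, from 0, scaled for each gene) of the 9 complement genes in A549 cells, with 1 bar per pooled column, red for siIRF2BP2 and blue for siNON, and no error bars because each group is a single column. CFB reaches 43.5 FPKM with siIRF2BP2 and 10.8 FPKM with siNON under TNF, while CD55 is lower with siIRF2BP2 in all 4 conditions.

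In the authors' deposited table, the knockdown log2 fold changes of CFB were 1.77 under dex plus TNF, 1.93 under TNF, 0.98 under dex and 0.79 under vehicle, and those of CD55 were -0.85, -0.77, -1.92 and -1.52. A log2 fold change of at least 0.5 in size was listed in the authors' deposited table for 5, 6, 6 and 4 of the 9 members, beside 28.2%, 30.1%, 29.3% and 27.7% of all 25689 symbols. The members' median log2 fold changes in the authors' deposited table were 0.41, 0.82, 0.54 and 0.31, and the medians over all expressed symbols were 0.02, 0.02, 0.00 and 0.01. These counts and medians were known when the genes were chosen and are given only as a description. Shares of all A549 symbols, here and below, include scarcely expressed genes. In contrast, 8 of the 9 members had at least 100 reads in either column of each comparison. The shares are therefore not matched to the members in expression. The authors' log2 fold changes lay up to 0.11 below the log2 ratios of pooled FPKM in the median gene for the knockdown, and up to 0.13 above them for the treatments. CD46 was the member whose knockdown direction turned with that scaling, at -0.09 under dex in the authors' deposited table and 0.12 as the FPKM ratio.

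TNF raised 6 of the 9 members in A549 cells and lowered 1, C5AR1, with either small interfering RNA (FDR under 0.05 in the authors' deposited table, which calls 24.5% of symbols with siIRF2BP2, 12.3% higher and 12.3% lower, and 12.8% with siNON, 6.62% higher and 6.14% lower). CFB showed the widest step, at 43.5 FPKM under TNF against 4.30 FPKM under vehicle with siIRF2BP2, which is 10.1-fold. With siNON it had 10.8 FPKM under TNF against 2.32 FPKM under vehicle, which is 4.66-fold. In the authors' deposited table the CFB log2 fold change with TNF was 3.46 (FDR listed as 0) with siIRF2BP2 and 2.33 (FDR 2.8e-77) with siNON. CFB thus had a larger TNF step in knockdown cells, a difference that has no test here because the columns are pooled and that follows from the knockdown ratios that were known when the genes were chosen.

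C1R, C1S and C3 rose together with TNF. The log2 fold changes in the authors' deposited table were 1.28 for C1R (FDR 7.28e-65), 1.04 for C1S (FDR 1.95e-47) and 1.48 for C3 (FDR 6.12e-63) with siIRF2BP2. With siNON they were 0.87 for C1R (FDR 5.29e-10), 0.84 for C1S (FDR 1.19e-17) and 1.26 for C3 (FDR 8.11e-18) in the authors' deposited table. The 4 members that are components of the cascade, C1R, C1S, C3 and CFB, were thus all called higher with the cytokine.

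The membrane regulators were less uniform. CD55 rose with TNF, by 1.57 on the log2 scale (FDR 9.7e-60) with siIRF2BP2 and by 0.83 (FDR 8.22e-10) with siNON, per the authors' deposited table. CD59 rose by 0.34 (FDR 4.77e-07) with siIRF2BP2 and by 0.32 (FDR 0.00214) with siNON in the authors' deposited table, whereas CD46 was not called, at -0.10 (FDR 0.362) with siIRF2BP2 and at 0.06 (FDR 0.982, and -0.01 as the FPKM ratio) with siNON. C5AR1 went the other way: it had 0.181 FPKM under TNF against 0.515 FPKM under vehicle with siIRF2BP2, and 0.0740 FPKM under TNF against 0.153 FPKM under vehicle with siNON. The authors' deposited table gives C5AR1 log2 fold changes of -1.39 (FDR 2.33e-12) with siIRF2BP2 and -0.96 (FDR 0.00587) with siNON. The second came from 39 reads under TNF against 106 under vehicle. These vehicle columns also give the knockdown ratio that was known when the genes were chosen. SERPING1 was not called, at 0.50 (FDR 0.586) with siIRF2BP2 and -0.93 (FDR 0.476) with siNON in the authors' deposited table. The members' median log2 change with TNF in the authors' deposited table was 1.04 with siIRF2BP2 and 0.83 with siNON, beside 0.02 and 0.01 over all expressed symbols.

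Dex alone moved fewer of them. With siNON, C5AR1 was the only member called in the authors' deposited table, where 6.95% of symbols were called, 4.1% higher and 2.85% lower. Its log2 fold change there was 1.49 (FDR 9.71e-11), from 0.423 FPKM under dex against 0.153 FPKM under vehicle. That vehicle column (106 reads) is also the reference of the knockdown ratio known when the genes were chosen. The C5AR1 dex values are therefore given as a description. With siIRF2BP2, 5 of 9 members rose and none fell in the authors' deposited table, where 15.7% of symbols were called, 8.74% higher and 6.96% lower. Those 5 were C3 at 0.77 (FDR 8.9e-18), C1R at 0.59 (FDR 6.2e-18), CD59 at 0.46 (FDR 8.69e-17), C5AR1 at 0.41 (FDR 0.0381) and C1S at 0.21 (FDR 0.00271), all log2 fold changes of the authors' deposited table.

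The corresponding dex values with siNON in the authors' deposited table were 0.33 for C3 (FDR 0.189), 0.28 for C1R (FDR 0.312), 0.22 for CD59 (FDR 0.298) and 0.21 for C1S (FDR 0.426). For C1S the log2 fold change was 0.21 with either small interfering RNA while the FDR differed, so passing the threshold with one and not with the other does not show a different response. CFB was not called with dex, at 0.05 (FDR 1, and -0.02 as the FPKM ratio) with siIRF2BP2 and -0.14 (FDR 1) with siNON in the authors' deposited table. CD46 and CD55 were not called with dex either, and the authors' deposited table lists CD55 at -0.10 (FDR 0.619) with siIRF2BP2 and 0.29 (FDR 0.395) with siNON.

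Adding dex to TNF set C3 and C5AR1 apart from the others. C3 had 11.3 FPKM under dex plus TNF against 4.6 FPKM under TNF with siIRF2BP2, and 9.22 FPKM against 4.16 FPKM with siNON. The log2 fold changes of C3 in the authors' deposited table were 1.31 (FDR 4.68e-58) with siIRF2BP2 and 1.14 (FDR 8.43e-20) with siNON. C3 therefore rose further when the glucocorticoid joined the cytokine, and its level under both agents was 6.14-fold that under vehicle with siIRF2BP2 and 4.81-fold with siNON. On the scale of log2 of pooled FPKM plus 0.1, the step of C3 to both agents exceeded the sum of its dex and TNF steps by 0.62 with siIRF2BP2 and by 0.88 with siNON.

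C5AR1 had 0.468 FPKM under dex plus TNF against 0.181 FPKM under TNF with siIRF2BP2, and 0.545 FPKM against 0.0740 FPKM with siNON. Its log2 fold changes in the authors' deposited table were 1.39 (FDR 1.31e-10) with siIRF2BP2 and 2.86 (FDR 6.39e-35) with siNON. Against vehicle, dex plus TNF left C5AR1 at -0.01 (FDR 1) with siIRF2BP2 and at 1.89 (FDR 1.01e-21) with siNON in the authors' deposited table, so its pooled level under both agents was 0.909-fold the vehicle level with siIRF2BP2 and 3.56-fold with siNON. The vehicle column of C5AR1 that enters these ratios was itself higher with siIRF2BP2, which was known when the genes were chosen. As for C3, the step of C5AR1 to both agents exceeded the sum of its dex and TNF steps on that log2 scale. The excess was 0.71 with siIRF2BP2 and 0.84 with siNON, from 39 to 326 reads per column.

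The other members moved little when dex was added to TNF. CFB stood at -0.11 (FDR 0.463) with siIRF2BP2 and 0.05 (FDR 1) with siNON in the authors' deposited table, so its TNF-raised level was not called lower or higher with dex. CD55 stood at 0.02 (FDR 1) with siIRF2BP2 and 0.11 (FDR 0.921) with siNON in the authors' deposited table. With siIRF2BP2, C1S fell by 0.27 on the log2 scale (FDR 0.000755) and CD59 rose by 0.30 (FDR 3.66e-05) in the authors' deposited table. In all, 3 members rose and 1 fell with siIRF2BP2, and 2 rose and none fell with siNON, where the authors' deposited table calls 16% and 10.9% of symbols. Against vehicle, dex plus TNF raised 6 members with siIRF2BP2 and 7 with siNON and lowered none, where 27.1% and 13.9% of symbols are called in the authors' deposited table.

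**Figure D2:**
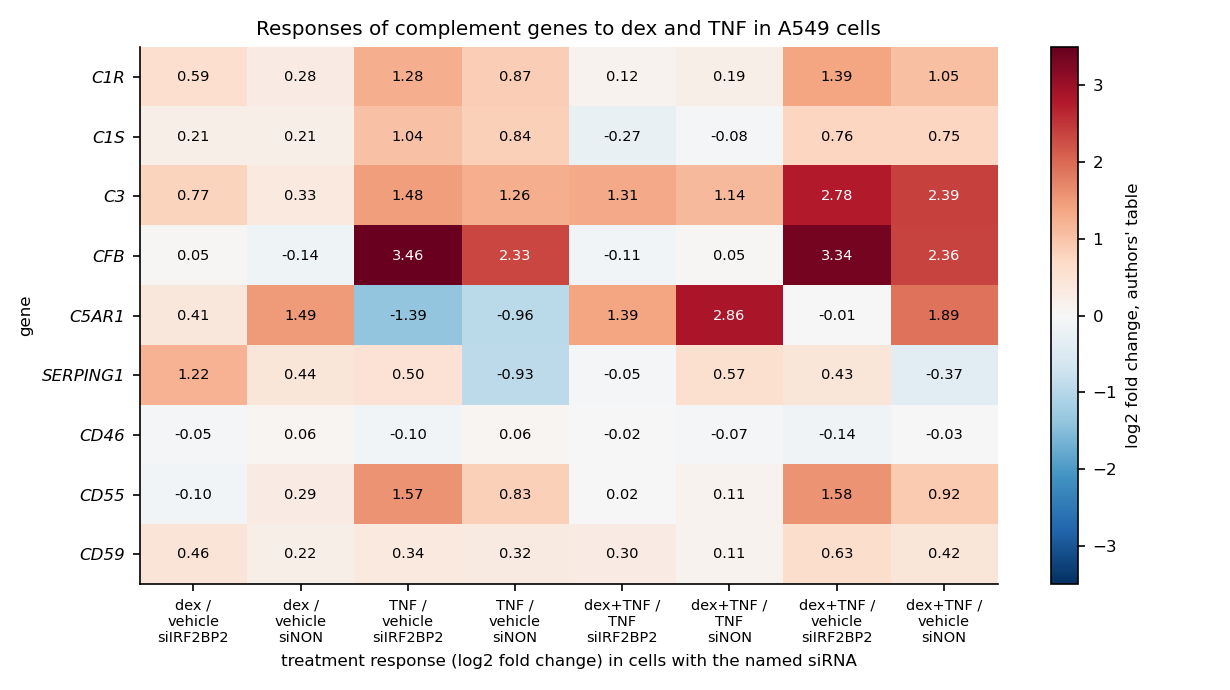
Log2 fold changes of the authors' deposited table for the 9 genes (rows) in 8 treatment comparisons of A549 cells (columns, siIRF2BP2 left of siNON), with red for higher and blue for lower. CFB stands at 3.46 and 2.33 with TNF, C3 and C5AR1 are the genes with clear steps when dex is added to TNF, and SERPING1 rests on 7 to 37 reads per column.

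In HEK293-GR cells the membrane regulators led the levels and CFB and C3 were close to the limit of counting. FPKM is per exon length there and can be set between genes. Under vehicle with siNON the order was CD46 at 25.8 ± 2.91 FPKM, CD55 at 11.5 ± 0.451, CD59 at 8.42 ± 0.735, C1R at 6.71 ± 0.492, SERPING1 at 1.81 ± 0.539, C1S at 0.722 ± 0.144, C5AR1 at 0.279 ± 0.0813, C3 at 0.134 ± 0.0474 and CFB at 0.0437 ± 0.00862 FPKM (mean ± SD, n = 3 each). No neighbours in that order overlapped in their 3 libraries, although the lowest C5AR1 library (0.191 FPKM) and the highest C3 library (0.189 FPKM) nearly met. Under dex with siNON, CD59 at 12.2 ± 0.307 FPKM stood above CD55 at 8.38 ± 0.127 FPKM, with no overlap. C3 rested on 12 to 27 reads per library and CFB on 1 to 7, and CFB did not pass the minimum of 10 reads in 3 libraries, which left 8 of 9 members to test.

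Per M tags, A549 cells held more reads of every member except SERPING1, with siNON under vehicle in both lines. C3 had 82.0 reads per M tags in A549 against 0.679 ± 0.240 in HEK293-GR (SD, n = 3), and CFB had 13.8 against 0.110 ± 0.0218. C1S had 87.7 against 2.02 ± 0.403 reads per M tags. SERPING1 was the reverse, at 0.332 reads per M tags in A549 against 3.54 ± 1.05 in HEK293-GR. The tables were normalised separately and count different stretches of each gene, so these ratios between lines carry no test.

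Knockdown in HEK293-GR cells was not used to choose the genes. Under vehicle none of the 8 tested members passed limma's threshold of adjusted p under 0.05, which 15.5% of 15594 genes passed. C5AR1 had 0.397, 0.356 and 0.608 FPKM with siIRF2BP2 against 0.191, 0.296 and 0.351 FPKM with siNON, and CD46 had 28.8, 30.8 and 29.6 FPKM against 22.9, 25.7 and 28.7 FPKM. Both had every siIRF2BP2 library above every siNON library, by a narrow gap. The limma log2 fold change was 0.54 ± 0.21 for C5AR1 (SE, 95% interval 0.09 to 0.99, adjusted p = 0.0928) and 0.21 ± 0.08 for CD46 (SE, 95% interval 0.03 to 0.39, adjusted p = 0.0959). CD55, the third tested member without overlap, had 12.2, 12.5 and 12.6 FPKM with siIRF2BP2 against 11.02, 11.7 and 11.9 FPKM with siNON, a log2 fold change of 0.11 ± 0.07 (SE, limma adjusted p = 0.292). Groups that do not overlap were found for 3 of 8 tested members, beside 26.7% of all genes tested. CFB, too scarce to test, had 0.080, 0.115 and 0.0750 FPKM with siIRF2BP2 against 0.0530, 0.0420 and 0.0360 FPKM with siNON under vehicle, from 2 to 7 reads per library.

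Under dex, 3 of the 8 tested members were higher with siIRF2BP2 and 1 was lower (limma), while 39.7% of all genes passed in this comparison, 22.4% higher and 17.3% lower. CD55 had 9.73, 10.9 and 9.62 FPKM with siIRF2BP2 against 8.27, 8.52 and 8.35 FPKM with siNON. CD46 had 30.2, 30.4 and 26.2 FPKM with siIRF2BP2 against 23.5, 23.4 and 23.1 FPKM with siNON. In both genes the siIRF2BP2 libraries were all higher, and the spread was wider among them than among the siNON libraries. The limma log2 fold changes were 0.26 ± 0.07 for CD55 (SE, adjusted p = 0.00816) and 0.31 ± 0.08 for CD46 (SE, adjusted p = 0.00916).

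C5AR1 had 0.643, 0.469 and 0.60 FPKM with siIRF2BP2 against 0.254, 0.305 and 0.367 FPKM with siNON under dex, from 12 to 40 reads per library. All siIRF2BP2 libraries lay above all siNON libraries, and limma gave a log2 fold change of 0.71 ± 0.21 (SE, 95% interval 0.27 to 1.16, adjusted p = 0.0149). The call was lost without siNON dex replicate 1 (limma adjusted p = 0.0610), without siIRF2BP2 dex replicate 1 (limma adjusted p = 0.0608) and in the authors' deposited table (0.83, FDR 0.0967). C1R was lower, with 6.19, 5.98 and 6.09 FPKM with siIRF2BP2 against 6.99, 6.80 and 8.31 FPKM with siNON, and its siNON dex replicate 3 stood highest. The C1R log2 fold change was -0.26 ± 0.10 (SE, limma adjusted p = 0.0408), and the call ended when any of 5 libraries was left out (siNON dex replicates 1 and 3 and each siIRF2BP2 dex replicate). Without siNON dex replicate 3 the C1R value was -0.18 (limma adjusted p = 0.210).

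The remaining members did not pass under dex: C1S at -0.38 ± 0.20 (SE, 95% interval -0.81 to 0.05), C3 at -0.13 ± 0.19, SERPING1 at 0.11 ± 0.21 and CD59 at 0.04 ± 0.08 on the log2 scale (limma, SE). Their libraries overlapped between the groups, while 4 of 8 tested members had no overlap, beside 58% of all genes tested. C1S passed only when siNON dex replicate 2 was left out, at -0.60 (limma adjusted p = 0.0297). The members' median log2 fold change was 0.07 under dex and 0.13 under vehicle, beside 0.00 and 0.03 over all genes tested.

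**Figure D3:**
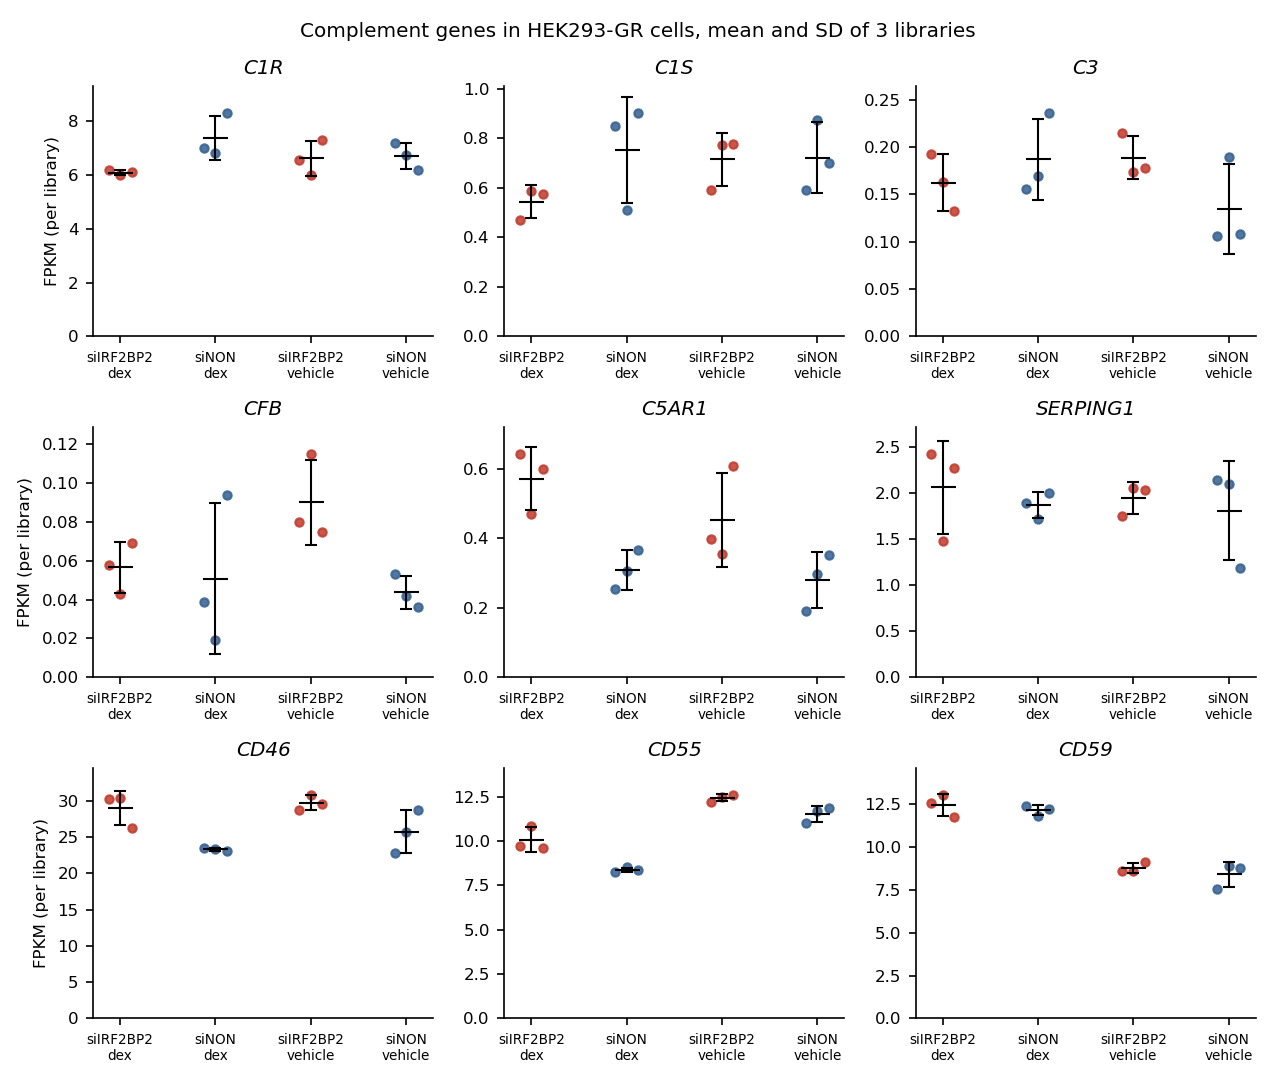
FPKM of the 9 complement genes in each HEK293-GR library (vertical axis from 0, scaled for each gene), with points for the 3 libraries of a group, red for siIRF2BP2 and blue for siNON, and black bars for the mean and SD. CD59 averages 12.5 and 12.2 FPKM under dex with siIRF2BP2 and siNON against 8.78 and 8.42 FPKM under vehicle. The C5AR1 libraries lie higher with siIRF2BP2 in both treatments, from 10 to 40 reads each. That difference was called by limma under dex only, and the call was lost under some alternatives.

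Dex changed the membrane regulators CD55 and CD59 of HEK293-GR cells in opposite directions, with either small interfering RNA. CD59 had 12.6, 13.1 and 11.8 FPKM under dex against 8.60, 8.62 and 9.12 FPKM under vehicle with siIRF2BP2. With siNON, CD59 had 12.4, 11.8 and 12.2 FPKM under dex against 7.58, 8.92 and 8.76 FPKM under vehicle. The dex libraries of CD59 were all above the vehicle libraries in both cases, and the limma log2 fold changes were 0.50 ± 0.08 (SE, adjusted p = 0.000204) with siIRF2BP2 and 0.53 ± 0.08 (SE, adjusted p = 8.94e-05) with siNON.

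CD55 had 9.73, 10.9 and 9.62 FPKM under dex against 12.2, 12.5 and 12.6 FPKM under vehicle with siIRF2BP2, and 8.27, 8.52 and 8.35 FPKM against 11.02, 11.7 and 11.9 FPKM with siNON. Every dex library was below every vehicle library of the same small interfering RNA. CD55 fell by 0.30 ± 0.07 on the log2 scale (SE, limma adjusted p = 0.00674) with siIRF2BP2 and by 0.46 ± 0.07 (SE, limma adjusted p = 0.000148) with siNON. In A549 cells, CD55 was not called with dex, and the CD59 values with dex in the authors' deposited table were 0.46 with siIRF2BP2 and 0.22 with siNON. The lines were not tested against each other.

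These were the 2 members called with dex in HEK293-GR cells, 1 higher and 1 lower, with limma calling 10.5% of genes with siIRF2BP2 and 20.7% with siNON. C5AR1, which rose with dex in A549, stood at 0.29 ± 0.21 (SE, limma adjusted p = 0.542) with siIRF2BP2 and 0.12 ± 0.21 (SE, limma adjusted p = 0.718) with siNON. C3 stood at -0.14 ± 0.19 with siIRF2BP2 and 0.30 ± 0.19 with siNON (limma, SE), from 12 to 27 reads per library. C1S had no overlap with siIRF2BP2, at 0.468, 0.588 and 0.576 FPKM under dex against 0.592, 0.773 and 0.779 FPKM under vehicle, and did not pass (limma log2 fold change -0.34 ± 0.20, adjusted p = 0.425). Groups that do not overlap were found for 3 of 8 tested members with siIRF2BP2 and for 2 of 8 with siNON, beside 25.3% and 39.1% of all genes tested.

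No member passed the test of a difference in dex response between siIRF2BP2 and siNON in HEK293-GR cells. By limma 0 of 8 passed, in a comparison that called 0.0128% of genes. The differences were 0.15 ± 0.10 for CD55 (SE, 95% interval -0.06 to 0.36, limma adjusted p = 0.794) and -0.03 ± 0.11 for CD59 (SE, 95% interval -0.26 to 0.20, limma adjusted p = 0.955). For C1R the difference was -0.24 ± 0.14 (SE, 95% interval -0.54 to 0.05, limma adjusted p = 0.794), and for C3 it was -0.44 ± 0.27 (SE, 95% interval -1.01 to 0.12, limma adjusted p = 0.794). The intervals were wider for C3, C1S, C5AR1 and SERPING1 (SE 0.27 to 0.30) than for CD46, CD55, CD59 and C1R (SE 0.10 to 0.14).

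**Figure D4:**
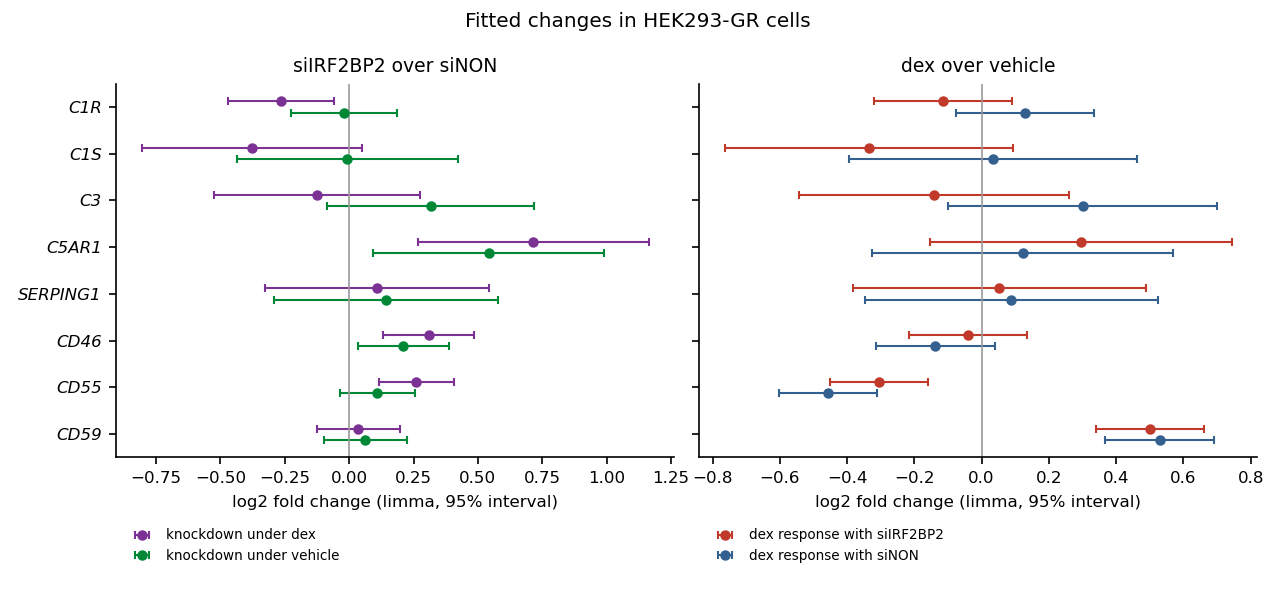
Log2 fold changes (limma, horizontal axis, 95% intervals as bars) of the 8 tested genes in HEK293-GR cells, with siIRF2BP2 over siNON on the left for dex and vehicle and dex over vehicle on the right for siIRF2BP2 and siNON. CD59 lies near 0.5 and CD55 lies below 0 on the right, and C5AR1 has the largest values and wide intervals on the left.

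Other complement genes, 46 taken from textbook knowledge, gave the setting. In the knockdown of A549 cells, 9 were higher and 3 lower under dex plus TNF, 7 and 3 under TNF, 3 and 4 under dex, and 9 and 2 under vehicle (FDR under 0.05 in the authors' deposited table, which calls 23.4%, 25.3%, 20.7% and 22.4% of symbols). C1RL, a protease related to C1r, was higher in all 4 conditions, by 0.72, 0.75, 0.85 and 0.75 on the log2 scale in the authors' deposited table. ITGB2, the beta chain of the complement receptor integrins, was lower in all 4, at -1.51, -1.44, -1.48 and -1.26 in the authors' deposited table. CFD, factor D, the protease that cleaves factor B, was lower too, at -0.88, -1.05, -0.80 and -0.92 in the authors' deposited table. Factor D thus moved down with the knockdown where its substrate factor B was higher. In HEK293-GR cells CFD was also lower, averaging 1.75 FPKM with siIRF2BP2 against 3.32 FPKM with siNON under dex (limma log2 fold change -0.89, adjusted p = 0.00443). Under vehicle CFD averaged 1.962 FPKM with siIRF2BP2 against 3.68 FPKM with siNON (limma log2 fold change -0.93, adjusted p = 0.00861).

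With dex in A549 cells, 3 of the 46 rose and 5 fell with siIRF2BP2, and 2 rose and none fell with siNON (authors' deposited table). Of all symbols, the authors' deposited table calls 15.7% with siIRF2BP2 and 6.95% with siNON. The 2 that rose with either small interfering RNA were C5AR2, another receptor for C5a, and THBD, thrombomodulin, a membrane protein that restrains coagulation and complement. C5AR2 had 0.321 FPKM under dex against 0.0410 FPKM under vehicle with siIRF2BP2 (3.0, FDR 6.14e-17 in the authors' deposited table), and 0.579 FPKM against 0.020 FPKM with siNON (4.81, FDR 5.46e-40 in the authors' deposited table). The vehicle columns of C5AR2 held 15 and 11 reads. Both C5a receptors were thus higher with dex in A549 cells. THBD had 61.0 FPKM under dex against 13.2 FPKM under vehicle with siIRF2BP2, and 22.9 FPKM against 9.91 FPKM with siNON, and its log2 fold changes in the authors' deposited table were 2.24 with siIRF2BP2 and 1.26 with siNON. In HEK293-GR cells THBD rose with dex by 1.48 on the log2 scale (limma adjusted p = 4.89e-07) with siIRF2BP2 and by 1.09 (limma adjusted p = 1.29e-05) with siNON.

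With TNF in A549 cells, 4 of the 46 rose and 9 fell with siIRF2BP2, and 3 rose and none fell with siNON (authors' deposited table). Of all symbols, the authors' deposited table calls 24.5% with siIRF2BP2 and 12.8% with siNON. ITGAM, the alpha chain of an integrin that serves as complement receptor, rose by 1.62 (FDR 1.04e-19) with siIRF2BP2 and 1.58 (FDR 2.42e-14) with siNON on the log2 scale in the authors' deposited table, while staying under 0.1 FPKM. C2, the classical counterpart of factor B, rose by 0.99 (FDR 2.44e-05) with siIRF2BP2 and 0.79 (FDR 0.0101) with siNON in the authors' deposited table. With siIRF2BP2, C5, the precursor of the peptide C5a, was among those that fell, at -0.51 (FDR 8.59e-08) in the authors' deposited table. The median log2 fold change over the 46 genes in the authors' deposited table was 0.00 with either small interfering RNA. Over those with at least 100 reads in either column it was -0.13 with siIRF2BP2 (16 genes) and 0.05 with siNON (15 genes). Of the 46, 13 could be tested in HEK293-GR cells. For the knockdown, limma called 5 of these under dex and 3 under vehicle, beside 39.7% and 15.5% of all genes tested. For dex it called 4 with either small interfering RNA, beside 10.5% of all genes tested with siIRF2BP2 and 20.7% with siNON.

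The A549 patterns of 3 members were compared with those of 13222 other genes over the 8 pooled columns, on log2 of FPKM plus 0.1. CFB was followed most closely by TRIM21 (Pearson r = 0.996), CLUH (0.993), ERAP2 (0.992), RNF207 (0.991) and PARP14 (0.990). Genes that followed C3 included CD38 (r = 0.985), SERPINA3 (0.983), ALS2CL (0.978) and ATP6V1C2 (0.977), and those that followed C5AR1 included MARS2 (0.966), ADCK4 (0.942), RMI1 (0.942) and FSIP1 (0.931). These r describe 8 columns that share libraries across genes, and with so many genes compared some high values arise in any case.

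IRF2BP2 ChIP peaks in HEK293-GR cells were set beside these genes by distance. The deposited lists hold 1400 peaks after dex and 1108 after vehicle, with positions only. Within 50 kb of a gene start there was no member in the dex list and 1, CFB, in the vehicle list, where 5.22% and 4.34% of all genes had such a peak. That vehicle peak lay at chr6:31939628-31939970 (hg19), 25.9 kb from the CFB start and beyond the end of CFB at 31919861. Its link to CFB or to other genes nearby was not tested. After CFB, C1S had the nearest peak, at 115 kb in both lists. No member had a peak within 10 kb in either list. Peaks were measured in HEK293-GR cells, where CFB is scarcely expressed, and not in A549.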

How the data were processed

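RNA sequencing of A549 and HEK293-GR cells and IRF2BP2 ChIP peaks of HEK293-GR cells were used. The submitters' processing notes name, with no roles, Bowtie2, TopHat2, HOMER, edgeR, FastQC and Trimmomatic 0.33 for RNA, and HOMER 4.10.3, Bowtie 0.12.9, FastQC and bedtools for ChIP, with hg19 as the build. Per the file headers the authors deposited FPKM, per library for HEK293-GR (by exon length) and pooled per group for A549 (by a length equal to the genomic span in 98.9% of transcripts). The deposited log2 fold changes, p-value and FDR columns are the authors' own. Each divides the group named later by the one named earlier, which fits the FPKM, and the test is not stated. Every peak has the score 1 in the deposited lists, so positions alone were used.

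The labels number 4 HEK293-GR replicates per group and 3 per group have a column, so 4 samples were not analysed here. FPKM times length and tags gave whole reads, within 0.01 reads beyond rounding, in the libraries and pooled columns, which gave 18.2 to 28.5 M and 35.8 to 56.9 M tags. Read numbers cover counting error only.

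In HEK293-GR, the 15594 genes that reached 10 reads in 3 or more libraries were tested on log2 of FPKM plus 0.1, a scale that understates changes of scarce genes. The tool was limma 3.58.1 (R 4.3.3) with a trend, fitted once to the 12 libraries (8 residual degrees of freedom). P-values were adjusted by Benjamini-Hochberg over all genes (threshold 0.05). The script was tested on simulated data, where smaller changes were recovered less often than larger ones. For A549 the authors' values of the transcript with the most reads were used. No label says that replicate numbers mark a shared batch, so the main fit had no block. Named genes are all 9 members, IRF2BP2, at most 4 other complement genes per direction and comparison by smallest p, and the 5 genes most like each of C3, CFB and C5AR1. Some genes that this rule names are not reported here. The members, lists and rules were chosen with earlier results of these data known. Alternatives were other pseudocounts, filters and scalings, limma voom, a replicate block, fewer groups, left-out libraries, FPKM ratios, other transcripts and other distances.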

Additional observations from a re-analysis of the deposited data

Results flagged for a closer look

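For 2 members every HEK293-GR library with siIRF2BP2 lay on one side of its siNON libraries while the pooled A549 column lay on the other side. For CD55 under vehicle the knockdown log2 fold change was 0.11 in HEK293-GR (limma) and -1.52 in A549 (authors' deposited table). For CD55 under dex it was 0.26 in HEK293-GR and -1.92 in A549, and for C1R under dex it was -0.26 in HEK293-GR and 0.71 in A549, from the same sources. These differences between the lines were not tested, since A549 has 1 pooled column per group and the tables were normalised separately, and the A549 values were known when the genes were chosen.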

How the results depend on the processing

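Among 784 HEK293-GR values of the tested members under alternatives, 749 kept direction and side of the threshold. The CD55 and CD46 calls of the knockdown under dex, and the CD55 and CD59 calls with dex, held under every alternative run. C1R under dex lost its call without the filter (limma adjusted p = 0.0580) and with the replicate block (limma adjusted p = 0.0552). With group means removed, same-numbered libraries correlated at -0.38 to 0.26 (4 of 18 pairs over 0.1). Differently numbered libraries correlated at -0.48 to 0.57 (11 of 36 pairs over 0.1). With 3 libraries per group these values cannot decide whether the numbers mark a shared batch.

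For the knockdown under vehicle, 2414 genes were called, and 567 with only the groups compared, 843 in the authors' deposited comparison (added after seeing the data) and 1161 to 4815 without a single library. Members called there were 0 to 2, the 2 being C5AR1 (0.68, limma adjusted p = 0.0314) and CD46 (0.29, limma adjusted p = 0.0131) without siNON vehicle replicate 3. Members called under dex numbered 4, and 2 to 5 without a single library. Dex with siNON called 3235 genes, and 1976 to 3909 without a single library. The difference of dex responses called 2 genes, 22 with a pseudocount of 1, 0 with the replicate block, and 0 to 7 without a single library. The cause of these shifts was not tested.

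Signs turned without a single library for uncalled values: knockdown under vehicle, C1R -0.093 to 0.046, C1S -0.13 to 0.12, CD59 -0.010 to 0.11 and SERPING1 -0.12 to 0.28; knockdown under dex, SERPING1 -0.020 to 0.32; dex with siNON, C1S -0.10 to 0.26, C5AR1 -0.058 to 0.26 and SERPING1 -0.17 to 0.23; dex with siIRF2BP2, CD46 -0.077 to 0.029 and SERPING1 -0.075 to 0.26; difference of dex responses, CD59 -0.071 to 0.045 and SERPING1 -0.17 to 0.23.

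In A549, members with a log2 change of at least 0.5 in size fell in number where FPKM ratios replaced the authors' values. With a pseudocount of 1, the largest relative falls included that to 3 of 5 for the knockdown under dex plus TNF. For dex the count was 0 of 1 with siNON and 0 of 3 with siIRF2BP2 (1 with a pseudocount of 0.1). TNF with siNON kept 4 of 7, and dex plus TNF over TNF with siIRF2BP2 kept 1 of 2. Smaller falls, such as those of the knockdown under TNF, dex and vehicle, are not listed. A larger pseudocount shrinks the ratios of scarce transcripts by construction. Of 336 A549 member values under FPKM ratios and other transcripts, 149 moved by more than counting error and 187 did not. The vehicle peak near CFB gave 1 member within 50 kb and 0 within 10 kb. Few reads limit C3, CFB and C5AR1 in HEK293-GR and SERPING1 in A549.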
